A study of Mus musculus with 8 samples.

Results

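The genes of bile acid synthesis and transport were followed in mouse livers injured by ischemia/reperfusion (I/R), in which blood flow is stopped and then restored. The group comprises 10 of the 54532 genes in the deposited table, chosen by symbol: the synthesis enzymes Cyp7a1, Cyp8b1, Cyp27a1 and Cyp7b1, the conjugation enzymes Baat and Slc27a5, the transporters Slc10a1 and Abcb11, and the nuclear receptors Nr1h4 and Nr0b2. RNA-seq libraries were made from liver tissue of 4 METTL3-HKD and 4 METTL3-Flox mice. The clamp closed only the left and middle branches of the portal vein, so part of each liver kept its blood flow. Which lobes were sequenced is not given in the sources used here. METTL3-HKD mice carried METTL3 flox/- with Alb-iCre, a Cre recombinase driven by the albumin promoter of hepatocytes, and METTL3-Flox littermates carried METTL3 flox/flox. The METTL3-HKD mice are described as heterozygous, and whether their - allele is wild-type or null is not given in the sources used here, so the number of working METTL3 alleles left in their hepatocytes is not known. METTL3 is the enzyme that writes m6A, a methyl mark on RNA. Mice of both groups underwent 1 h of ischemia and 6 h of reperfusion. Every comparison is therefore between livers after I/R, and no sham-operated liver was used here. The paper reports larger necrotic areas and higher serum transaminases in METTL3-HKD than in METTL3-Flox mice at this time. Cre, the METTL3 alleles and, by the paper, the degree of injury differ together between the groups, so their parts cannot be told apart. The age and sex of these 8 mice are not given in the sources used here.

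Bile acids are made from cholesterol in hepatocytes. In the classic pathway Cyp7a1 carries out the rate-limiting hydroxylation of cholesterol and Cyp8b1 directs intermediates to cholic acid, while the alternative pathway begins with Cyp27a1 and continues with Cyp7b1. Slc27a5 and Baat join the finished acids to coenzyme A and then to taurine or glycine, Abcb11 (the bile salt export pump) secretes them into bile, and Slc10a1 (NTCP) takes them back up from portal blood. Bile acids bind the receptor Nr1h4 (FXR), which induces Nr0b2 (SHP) and Abcb11, and Nr0b2 represses Cyp7a1 and Cyp8b1.

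Levels are given in FPKM, which divides fragment counts by gene length and by library size, so that genes of different length can be compared. The libraries held 15861245 to 18434488 reads on genes. Mettl3 itself averaged 1.33 ± 0.181 FPKM in the METTL3-HKD group and 1.5 ± 0.282 FPKM in the METTL3-Flox group (SD, n = 4 each), with overlapping groups (exact permutation test, p = 0.371). Of its exonic bases, 18.4% are shared with Tox4 on the opposite strand. The FPKM also counts exons outside the floxed part, so the level did not check the genotype. The paper reports its own check of METTL3 in organs of METTL3-HKD mice, with ablation specific to the liver. The 14 hepatocyte markers, led by Alb, were expressed in every liver, with a summed level of 41700 to 58500 FPKM in METTL3-HKD and 52200 to 66200 FPKM in METTL3-Flox mice, and 0 of the 14 were called lower or higher with limma, where 1 was lower at an unadjusted p under 0.05 and voom called 0. All 14 had a negative log2 fold change, with a median of -0.29, and 9 of them when livers were scaled to reads on genes. The 8 neutrophil markers summed to 333 to 1630 FPKM in METTL3-HKD and 13.1 to 44.9 FPKM in METTL3-Flox mice, and all 8 were called higher. The 7 Kupffer cell markers summed to 65.7 to 144 FPKM and 146 to 356 FPKM, with 5 called lower, and these calls were lost when livers were scaled to reads on genes or to equal hepatocyte markers. Of 6 tested cholangiocyte markers, 4 were called higher, and the list summed to 124 to 372 FPKM against 56.6 to 82.9 FPKM. Of 10 markers of periportal hepatocytes 1 was called lower, and of 10 markers of pericentral hepatocytes 0 were called. Of 7 sinusoidal endothelial markers 2 were called lower, and of 7 stellate cell markers 2 were called lower and 1 higher. Over all genes tested, 6.63% were called lower and 9.05% higher. The part of cell composition in the results below was not tested. In liver tissue not split by cell type, fewer cells of a type and less RNA per cell cannot be told apart.

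METTL3-HKD livers held less mRNA for the classic pathway enzymes Cyp7a1 and Cyp8b1, which were called lower under all 18 alternatives tried. Cyp27a1, Slc27a5 and the bile acid receptor Nr1h4 were also called lower, but these calls were lost under 12, 7 and 4 of the 18 alternatives. Of the 10 genes, 5 were thus called lower, against 6.63% of all 16645 genes tested, and 0 were called higher, against 9.05%. The 5 became 3 with livers scaled to reads on genes, 2 with livers scaled to equal hepatocyte markers, and 2 to 7 with 1 liver left out (2 without METTL3-HKD liver 2 or METTL3-Flox liver 3). A gene was called when its adjusted p was under 0.05 (limma on log2(FPKM + 0.1), two-sided, Benjamini-Hochberg over all genes tested). An unadjusted p under 0.05 was reached by 8 genes in the lower and 0 in the higher direction, and voom on reads rebuilt from the FPKM called 7 lower and 0 higher. In 6 of the 10 genes every METTL3-HKD liver lay below every METTL3-Flox liver, against 9.95% of all genes, and in 0 every one lay above, against 12.7%. All 10 log2 fold changes (METTL3-HKD minus METTL3-Flox) were negative, 8 of them also with livers scaled to equal hepatocyte markers (not Baat and Nr0b2). Their median was -0.84, where the median over all genes tested was -0.00. The 10 genes were chosen with earlier results of these data known, so these comparisons with all genes are no test of the group. The shares over all genes also include genes of low level. With a minimum mean of 1 FPKM, 7 of the 10 were called lower and 0 higher, against 1151 and 1251 of 10694 genes tested.

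**Figure D1:**
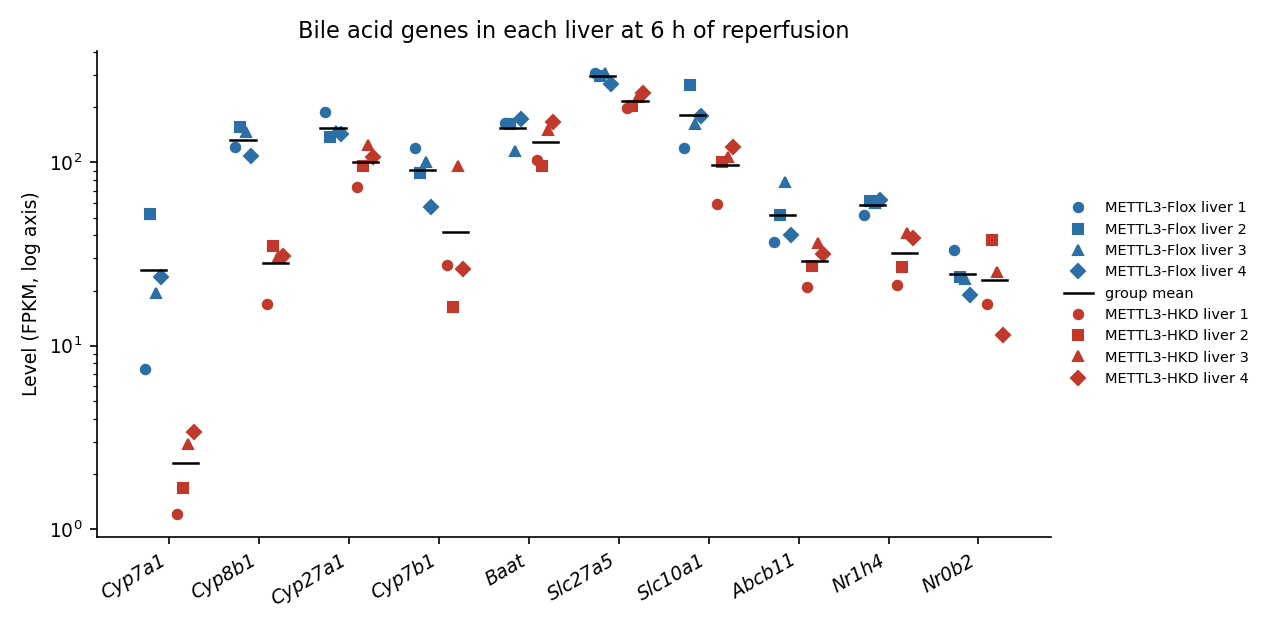
FPKM on a log axis for the 10 bile acid genes, with 1 point per liver (blue, METTL3-Flox; red, METTL3-HKD) and a black line at each group mean. Symbols mark the liver number within a group, which the labels do not tie to a litter. The groups are fully separated for Cyp7a1 and Cyp8b1 and overlap for Baat and Nr0b2.

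The enzymes of the classic pathway had the largest log2 fold changes of the 10 genes. Cyp7a1 (ENSMUSG00000028240), in 6 exons between 6265612 and 6275633 of chromosome 4 (GRCm38, minus strand, with exons counted in 1 coding transcript of GENCODE M21 for each gene), measured 1.2, 1.67, 2.90 and 3.39 FPKM across METTL3-HKD livers 1 to 4 but 7.47, 52.6, 19.3 and 23.6 FPKM across METTL3-Flox livers 1 to 4. Every METTL3-HKD liver was low, and the METTL3-Flox livers were spread widely, with liver 1 the lowest and liver 2 the highest. The mean fell from 25.7 ± 19.2 FPKM (SD, n = 4) to 2.29 ± 1.02 FPKM (SD, n = 4), which is 11.2-fold lower. That ratio rested in part on METTL3-Flox liver 2, and it was 7.32-fold without this liver and 9.69-fold to 13.9-fold without any other 1. The log2 fold change was -3.22 (SE 0.546, 95% interval -4.46 to -1.99, limma adjusted p = 0.00896; -2.77 without METTL3-Flox liver 2, adjusted p = 0.018), and the exact permutation p of 0.0286 is the smallest that 4 against 4 livers allow. Each METTL3-HKD liver contributed 101 to 263 Cyp7a1 reads and each METTL3-Flox liver 443 to 3548.

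Cyp8b1 (ENSMUSG00000050445), a gene of 1 exon on the minus strand of chromosome 9 from 121914356 to 121916305, measured 16.8, 35.2, 30.4 and 30.8 FPKM across METTL3-HKD livers 1 to 4 but 121, 156, 146 and 109 FPKM across METTL3-Flox livers 1 to 4. The METTL3-HKD livers stood well apart from the METTL3-Flox livers, which were close to each other. Its mean was 4.7-fold lower in METTL3-HKD mice, with a log2 fold change of -2.27 (SE 0.227, 95% interval -2.78 to -1.75, limma adjusted p = 0.0019; exact permutation p = 0.0286). In METTL3-Flox mice Cyp8b1 ranked 4 or 5 of the 10 genes by FPKM, and in METTL3-HKD mice 6 to 9. Cyp7a1 ranked 10 in every METTL3-HKD liver and 8 to 10 in METTL3-Flox livers.

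The ratio of the classic pathway enzymes to each other did not separate the groups. The log2 ratio of Cyp8b1 to Cyp7a1 was 3.70, 4.32, 3.34 and 3.15 in METTL3-HKD livers 1 to 4 and 4.01, 1.57, 2.91 and 2.20 in METTL3-Flox livers 1 to 4. METTL3-Flox liver 1, with the lowest Cyp7a1 level of its group, had a ratio within the METTL3-HKD range. The difference of the means was 0.95, with SDs of 0.513 in METTL3-HKD and 1.05 in METTL3-Flox mice, and did not pass an exact permutation test (p = 0.171).

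In the alternative pathway, Cyp27a1 was called lower and Cyp7b1 was not. Cyp27a1 (ENSMUSG00000026170; chromosome 1, plus strand, 74713574 to 74737892, 9 exons) measured 73.5, 95.1, 124 and 107 FPKM across METTL3-HKD livers 1 to 4 but 188, 137, 148 and 143 FPKM across METTL3-Flox livers 1 to 4. The groups did not overlap, but METTL3-HKD liver 3 lay close to METTL3-Flox liver 2. The log2 fold change was -0.64 (SE 0.171, 95% interval -1.02 to -0.25, limma adjusted p = 0.038). The call was lost under 12 of the 18 alternatives, among them the omission of any 1 liver other than METTL3-HKD liver 3 (limma adjusted p between 0.0599 and 0.0864).

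Cyp7b1 (ENSMUSG00000039519; chromosome 3, minus strand, 18071950 to 18243338, 6 exons) measured 27.7, 16.3, 95.6 and 26.3 FPKM across METTL3-HKD livers 1 to 4 but 120, 87.2, 101 and 57.1 FPKM across METTL3-Flox livers 1 to 4. METTL3-HKD liver 3 was at the level of METTL3-Flox mice, while the other METTL3-HKD livers were lower than every METTL3-Flox liver. With a log2 fold change of -1.43 (SE 0.486, 95% interval -2.53 to -0.33), the gene did not pass (limma adjusted p = 0.0766; exact permutation p = 0.0857). Without METTL3-HKD liver 3 the log2 fold change was -1.95 and the adjusted p was 0.00501 (limma), the 1 alternative of 18 in which Cyp7b1 was called.

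Of the conjugation enzymes, Slc27a5 was called lower and Baat was not, and the difference between them was not tested. Slc27a5 (ENSMUSG00000030382; chromosome 7, minus strand, 12988346 to 12998192, 10 exons) was the most highly expressed of the 10 genes in each of the 8 livers. It measured 197, 202, 226 and 239 FPKM across METTL3-HKD livers 1 to 4 but 306, 295, 308 and 268 FPKM across METTL3-Flox livers 1 to 4, and the spread within each group was narrow. Its log2 fold change was -0.45 (SE 0.107, 95% interval -0.69 to -0.21, limma adjusted p = 0.0262). The call was lost without METTL3-HKD liver 1 or 2 or METTL3-Flox liver 2 or 3 (limma adjusted p between 0.0597 and 0.0769). Baat (ENSMUSG00000039653; chromosome 4, minus strand, 49489422 to 49506557, 4 exons) measured 103, 95.1, 151 and 166 FPKM across METTL3-HKD livers 1 to 4 and 165, 161, 116 and 172 FPKM across METTL3-Flox livers 1 to 4. METTL3-HKD livers 3 and 4 were within the METTL3-Flox range and livers 1 and 2 were below it. Its log2 fold change was -0.28 (SE 0.208, 95% interval -0.75 to 0.19, limma adjusted p = 0.389), and 0 of 18 alternatives called it.

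The transporters lay near the threshold. Neither passed it, and both had an interval of the difference that lay below 0. Slc10a1 (ENSMUSG00000021135; chromosome 12, minus strand, 80953183 to 80968705, 5 exons) measured 59.5, 101, 107 and 122 FPKM across METTL3-HKD livers 1 to 4 but 120, 265, 162 and 179 FPKM across METTL3-Flox livers 1 to 4. The groups met only where METTL3-HKD liver 4 and METTL3-Flox liver 1 lay at almost the same level. The log2 fold change was -0.89 (SE 0.277, 95% interval -1.51 to -0.26, limma adjusted p = 0.0602; exact permutation p = 0.0571), and without METTL3-Flox liver 1 the adjusted p was 0.0398. Abcb11 (ENSMUSG00000027048; chromosome 2, minus strand, 69238282 to 69342616, 29 exons) measured 21.0, 27.1, 36.4 and 31.6 FPKM across METTL3-HKD livers 1 to 4 but 36.9, 51.8, 77.7 and 40.1 FPKM across METTL3-Flox livers 1 to 4. The groups did not overlap, with METTL3-HKD liver 3 just under METTL3-Flox liver 1. For Abcb11 the log2 fold change was -0.79 (SE 0.249, 95% interval -1.36 to -0.23, limma adjusted p = 0.0604; exact permutation p = 0.0286). Without METTL3-HKD liver 3 or METTL3-Flox liver 1 the adjusted p was 0.0493 or 0.0476. Of the 18 alternatives, 6 called Slc10a1 lower (limma adjusted p between 0.0354 and 0.203 over all 18) and 7 called Abcb11 lower (0.0292 to 0.24), among them for both genes voom, array quality weights, a minimum of 1 FPKM, protein-coding genes only and the replicate block. The log2 ratio of the uptake to the export transporter averaged 1.72 ± 0.231 (SD, n = 4) in METTL3-HKD and 1.82 ± 0.573 (SD, n = 4) in METTL3-Flox mice, a difference of -0.09 that did not pass an exact permutation test (p = 0.8).

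Of the nuclear receptors, Nr1h4 was called lower and Nr0b2 was not, and the difference between them was not tested. Nr1h4 (ENSMUSG00000047638; chromosome 10, minus strand, 89454234 to 89533585, 9 exons) measured 21.3, 26.9, 41.2 and 38.5 FPKM across METTL3-HKD livers 1 to 4 but 51.8, 61.5, 59.7 and 62.1 FPKM across METTL3-Flox livers 1 to 4. Every METTL3-HKD liver lay below the narrow METTL3-Flox range. This gave a log2 fold change of -0.92 (SE 0.2, 95% interval -1.38 to -0.47, limma adjusted p = 0.019), and the call held under 14 of 18 alternatives. It was lost without METTL3-HKD liver 2, METTL3-Flox liver 3 or METTL3-Flox liver 4 (limma adjusted p between 0.0503 and 0.0556). Nr0b2 (ENSMUSG00000037583; chromosome 4, plus strand, 133553376 to 133556536, 2 exons) measured 16.9, 37.7, 25.2 and 11.4 FPKM across METTL3-HKD livers 1 to 4 and 33.3, 23.8, 23.0 and 18.9 FPKM across METTL3-Flox livers 1 to 4. METTL3-HKD mice held both the highest and the lowest Nr0b2 level of the 8 livers. The log2 fold change was -0.23 (SE 0.339, 95% interval -0.99 to 0.54, limma adjusted p = 0.684), and without METTL3-HKD liver 4 it was 0.06.

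**Figure D2:**
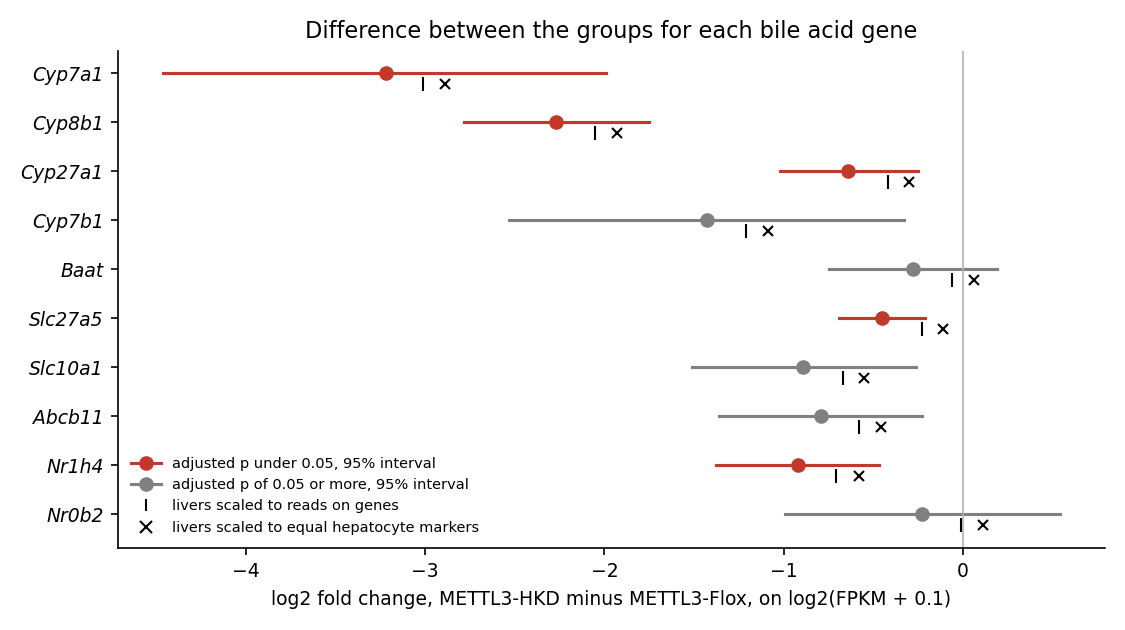
log2 fold change (METTL3-HKD minus METTL3-Flox) of each bile acid gene with its 95% interval, red where the adjusted p was under 0.05 and grey otherwise. Black ticks and crosses give the value after scaling livers to reads on genes or to equal hepatocyte markers, where Cyp7a1 (-2.89) and Cyp8b1 (-1.93) stay far below 0 and Baat (0.06) and Nr0b2 (0.11) cross it with the equal markers.

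Promoter sequences were read from RefSeq on GRCm38.p6 for 6 of the 10 genes, as the 250 bases before the annotated start. The motifs searched on both strands were AGGTCA (the half-site of many nuclear receptors, FXR among them), TCAAGGTCA (bound by Nr5a2), TGACTCA (AP-1), TATAAA (the TATA box), TTGCGCAA (C/EBP) and CAAAGTCCA (an HNF4 site, a motif added after the Cyp8b1 sequence had been read, so that its match there was known when it was chosen). Some motifs overlap, since TCAAGGTCA holds AGGTCA. Of 32851 promoters of the same length, AGGTCA is in 14%, TCAAGGTCA in 0.387%, TGACTCA in 4.46%, TATAAA in 12.4%, TTGCGCAA in 0.164% and CAAAGTCCA in 0.384%. Those of Cyp8b1 and Nr1h4, both called lower, and of Abcb11 and Nr0b2, which FXR is known to induce, are printed 5′ to 3′ on the strand of the gene, with matches in capitals (TGACCT is AGGTCA on the other strand). They lie at chr9:121916306-121916555, chr10:89506659-89506908 and chr2:69342617-69342866 on the minus strand and at chr4:133553126-133553375 on the plus strand.
Cyp8b1: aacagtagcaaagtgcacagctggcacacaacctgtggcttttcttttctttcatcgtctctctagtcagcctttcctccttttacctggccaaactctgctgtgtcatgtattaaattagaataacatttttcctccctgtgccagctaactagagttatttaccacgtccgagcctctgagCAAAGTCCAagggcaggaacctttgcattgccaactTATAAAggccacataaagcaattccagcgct
Nr1h4: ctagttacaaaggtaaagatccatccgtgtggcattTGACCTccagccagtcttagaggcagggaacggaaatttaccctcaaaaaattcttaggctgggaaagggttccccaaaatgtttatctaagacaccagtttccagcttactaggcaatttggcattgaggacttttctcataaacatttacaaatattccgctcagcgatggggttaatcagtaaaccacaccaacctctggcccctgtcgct
Abcb11: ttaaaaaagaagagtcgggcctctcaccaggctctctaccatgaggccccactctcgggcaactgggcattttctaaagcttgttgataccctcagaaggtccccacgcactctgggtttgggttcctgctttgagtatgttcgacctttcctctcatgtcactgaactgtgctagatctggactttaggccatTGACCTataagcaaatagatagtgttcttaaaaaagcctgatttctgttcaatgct
Nr0b2: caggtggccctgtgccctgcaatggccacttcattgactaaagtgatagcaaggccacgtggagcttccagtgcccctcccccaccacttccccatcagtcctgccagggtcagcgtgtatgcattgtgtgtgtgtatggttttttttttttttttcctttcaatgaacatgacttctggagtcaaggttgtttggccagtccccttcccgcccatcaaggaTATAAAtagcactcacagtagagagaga
Cyp8b1 holds CAAAGTCCA from 67 to 59 and TATAAA from 31 to 26 bases before its start. AGGTCA lies 214 to 209 bases before the start of Nr1h4 and 56 to 51 bases before that of Abcb11, in both on the other strand, and TATAAA lies 28 to 23 bases before the start of Nr0b2. The window of Cyp27a1 held 0 matches, and Slc10a1, with 2 annotated starts, held TATAAA on the other strand before 1 start and AGGTCA before the other. The RefSeq start used for Nr1h4 lies inside the annotated gene. A match is a description of the sequence and was not tested for binding.

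The size of the smaller differences depended on how livers were scaled. With the deposited FPKM, all genes tested had a median log2 fold change of -0.00. Scaling each library to its reads on genes moved that median to 0.20, and setting the mean log2 level of the hepatocyte markers equal in all livers moved it to 0.31. The calls over all genes, 1104 lower and 1506 higher, became 374 and 2309 with reads on genes (2.24% and 13.8% of all genes tested) and 128 and 1467 with equal hepatocyte markers (0.764% and 8.76%). Under the equal hepatocyte markers Cyp7a1 had a log2 fold change of -2.89 (limma adjusted p = 0.00841), and Cyp8b1 of -1.93 (adjusted p = 0.00125), and these were the 2 genes called. Nr1h4 then had -0.58 (adjusted p = 0.0587), Cyp27a1 -0.30 (adjusted p = 0.186) and Slc27a5 -0.11 (adjusted p = 0.634). Such a scaling moves every gene by nearly the same amount, so values taken relative to the median of all genes must come out almost the same under both scalings and are no check of the calls. With equal hepatocyte markers these relative values were -3.21 for Cyp7a1, -2.24 for Cyp8b1, -0.90 for Nr1h4, -0.61 for Cyp27a1, -0.42 for Slc27a5, -0.25 for Baat and -0.20 for Nr0b2. With scaling to reads on genes, 3 genes were called lower, the third being Nr1h4 (log2 fold change -0.71, limma adjusted p = 0.0294).

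Levels varied within the METTL3-HKD group. METTL3-HKD liver 1 had the lowest level of 7 of the 10 genes, and livers 1 and 2 were both below livers 3 and 4 for Cyp7a1, Cyp27a1, Baat, Slc27a5, Slc10a1, Abcb11 and Nr1h4. As a share of the METTL3-Flox mean, Cyp7a1 stood at 4.67%, 6.5%, 11.3% and 13.2% in METTL3-HKD livers 1 to 4, and Nr1h4 at 36.2%, 45.7%, 70.1% and 65.5%. Cyp8b1 did not follow that order, with 12.6%, 26.5%, 22.9% and 23.2%, and Nr0b2 reached 152% in liver 2. The hepatocyte markers summed to 41700, 44100, 55400 and 58500 FPKM for METTL3-HKD livers 1 to 4, and the neutrophil markers to 1630, 383, 333 and 549 FPKM. Livers 1 and 2 were thus also the lowest in hepatocyte markers, and liver 1 was the highest in neutrophil markers. The part of either in these differences between livers was not tested.

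**Figure D3:**
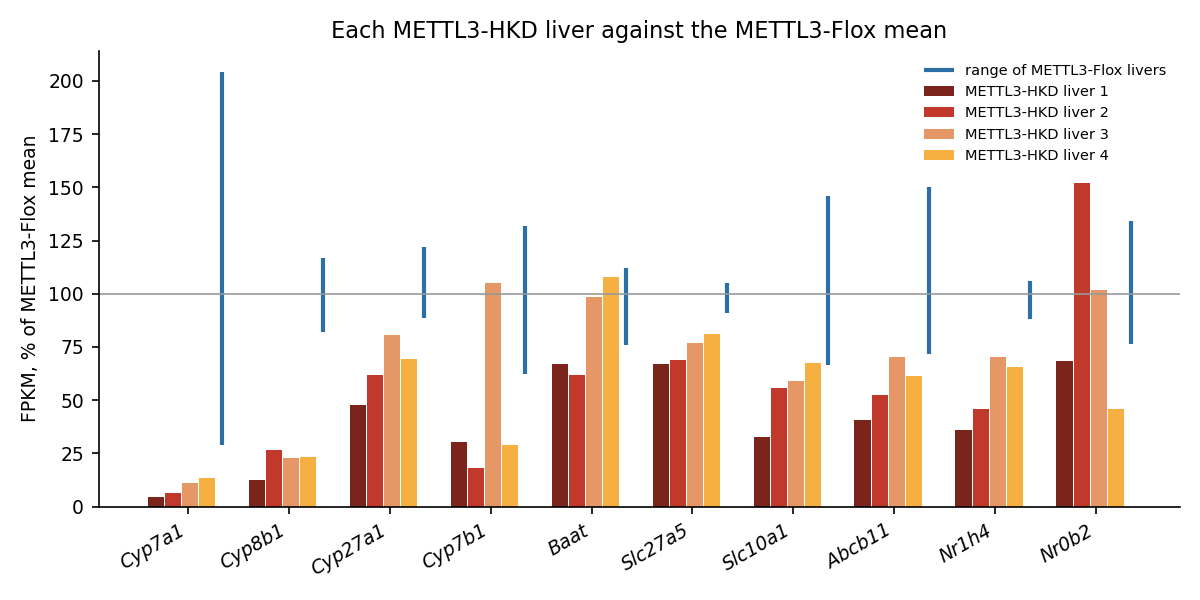
FPKM of each METTL3-HKD liver (bars) as a percentage of the METTL3-Flox mean, with the range of the 4 METTL3-Flox livers as a blue line and 100% as a grey line. Cyp7a1 bars end between 4.67% and 13.2%, and Cyp7b1 reaches 105% only in METTL3-HKD liver 3.

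In the order of levels, few neighbours were separated. In METTL3-Flox mice the means ran from Slc27a5 (294 FPKM) through Slc10a1 (181), Cyp27a1 (154), Baat (154), Cyp8b1 (133), Cyp7b1 (91.3), Nr1h4 (58.8), Abcb11 (51.6) and Cyp7a1 (25.7) to Nr0b2 (24.7 FPKM). Slc27a5 lay above the range of Slc10a1, and the ranges of all other neighbours overlapped. In METTL3-HKD mice the means ran from Slc27a5 (216 FPKM) through Baat (129), Cyp27a1 (99.8), Slc10a1 (97.5), Cyp7b1 (41.5), Nr1h4 (32.0), Abcb11 (29.0), Cyp8b1 (28.3) and Nr0b2 (22.8) to Cyp7a1 (2.29 FPKM). Here the ranges were separate between Slc27a5 and Baat and between Nr0b2 and Cyp7a1.

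Calls among further enzymes of bile acid synthesis were about as frequent as among all genes. Of 14 listed genes 13 were tested, and 1 was called lower, against 6.63% of all genes, and 1 higher, against 9.05%, with a median log2 fold change of -0.21 that was 0.01 with reads on genes and 0.13 with equal hepatocyte markers. Scp2, a peroxisomal thiolase that shortens the side chain, averaged 629 ± 94.9 FPKM in METTL3-HKD and 944 ± 142 FPKM in METTL3-Flox livers (SD, n = 4 each; log2 fold change -0.58, limma adjusted p = 0.0437). Its call was lost when any 1 liver other than METTL3-HKD liver 4 was left out (limma adjusted p between 0.0613 and 0.105), and with both other scalings of livers (0.079 and 0.322). Ch25h, the cholesterol hydroxylase induced in activated macrophages, went the other way, with 15.6, 8.78, 3.16 and 6.30 FPKM across METTL3-HKD livers 1 to 4 but at most 0.341 FPKM in METTL3-Flox livers (limma adjusted p = 0.0019). It rested on 12 reads over the 4 METTL3-Flox livers, and its log2 fold change of 5.06 moved between 2.88 and 5.78 over the alternatives. The reductases Akr1c6 (log2 fold change -0.94, limma adjusted p = 0.0509) and Akr1d1 (-0.73, adjusted p = 0.131) and the mouse muricholic acid enzyme Cyp2c70 (-0.85, adjusted p = 0.111) were not called. These 3 genes fall outside the rule for named genes, and their values were seen before they were named. Hsd3b7 had at most 5 reads per liver and shares most of its exonic bases with other annotated genes, so its level could not be read.

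Among other transporters of bile acids and bile lipids, Slco1b2 was called lower and Abcb1a, Abcg8, Abcg5 and Abcc4 were called higher. Of 16 listed genes 15 were tested, 1 was called lower, against 6.63% of all genes, and 4 higher, against 9.05%, and the median log2 fold change was 0.21 (0.38 and 0.48 with reads on genes and equal hepatocyte markers). Slco1b2, which takes up unconjugated bile acids, measured 65.9, 85.1, 116 and 132 FPKM across METTL3-HKD livers 1 to 4 but 221, 265, 214 and 205 FPKM across METTL3-Flox livers 1 to 4. All METTL3-HKD livers were below all METTL3-Flox livers, with a log2 fold change of -1.22 (SE 0.21, limma adjusted p = 0.00943) that was called under all 18 alternatives. Slco1a1, named after its values were seen, had a log2 fold change of -1.68 (limma adjusted p = 0.0922) with METTL3-HKD livers 1 and 2 at 5.55 FPKM and livers 3 and 4 at 33.4 and 29.8 FPKM.
Of the genes called higher, Abcb1a, a multidrug efflux pump, had 1.43 ± 0.119 FPKM in METTL3-HKD mice against 0.512 ± 0.21 FPKM (SD, n = 4 each), and a log2 fold change of 1.40 (limma adjusted p = 0.0141). Abcg8 and Abcg5, which form the sterol exporter of the canalicular membrane, had log2 fold changes of 1.01 (limma adjusted p = 0.0222) and 0.89 (adjusted p = 0.0462). Abcg8 stood at 21.6 ± 6.48 FPKM in METTL3-HKD and 10.5 ± 2.16 FPKM in METTL3-Flox mice (SD, n = 4 each). Abcc4, a basolateral efflux pump known to rise in cholestasis, had 1.21 ± 0.528 FPKM in METTL3-HKD mice against 0.546 ± 0.0593 FPKM (SD, n = 4 each), and a log2 fold change of 0.95 (limma adjusted p = 0.0454). Abcb1a was called in each of the 17 alternatives in which it was tested, while Abcg8 was called in 15 of 18, Abcg5 in 8 of 18 and Abcc4 in 5 of 17. Abcg8 was lost without METTL3-HKD liver 2 or METTL3-Flox liver 3 (limma adjusted p 0.0589 to 0.0654). Abcg5 was lost without any 1 liver other than METTL3-HKD liver 4 and METTL3-Flox liver 4 (0.0587 to 0.111). Abcc4 was lost without any 1 liver other than METTL3-HKD livers 3 and 4 (0.0809 to 0.11) or with equal hepatocyte markers (0.0613). The replicate block ended each of these calls. No minimum, no trend and array quality weights also ended those of Abcg5 and Abcc4, and a pseudocount of 1 FPKM that of Abcc4. Other carriers and pumps were not called. The uptake carrier Slco1a4 had a log2 fold change of 0.48 (limma adjusted p = 0.533) and the basolateral pump Abcc3 of 0.40 (0.26). The canalicular pump Abcc2 had -0.05 (limma adjusted p = 0.865), and the phospholipid transporters Abcb4 and Atp8b1 had 0.26 (0.213) and -0.22 (0.414). All of these were named after their values were seen.

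**Figure D4:**
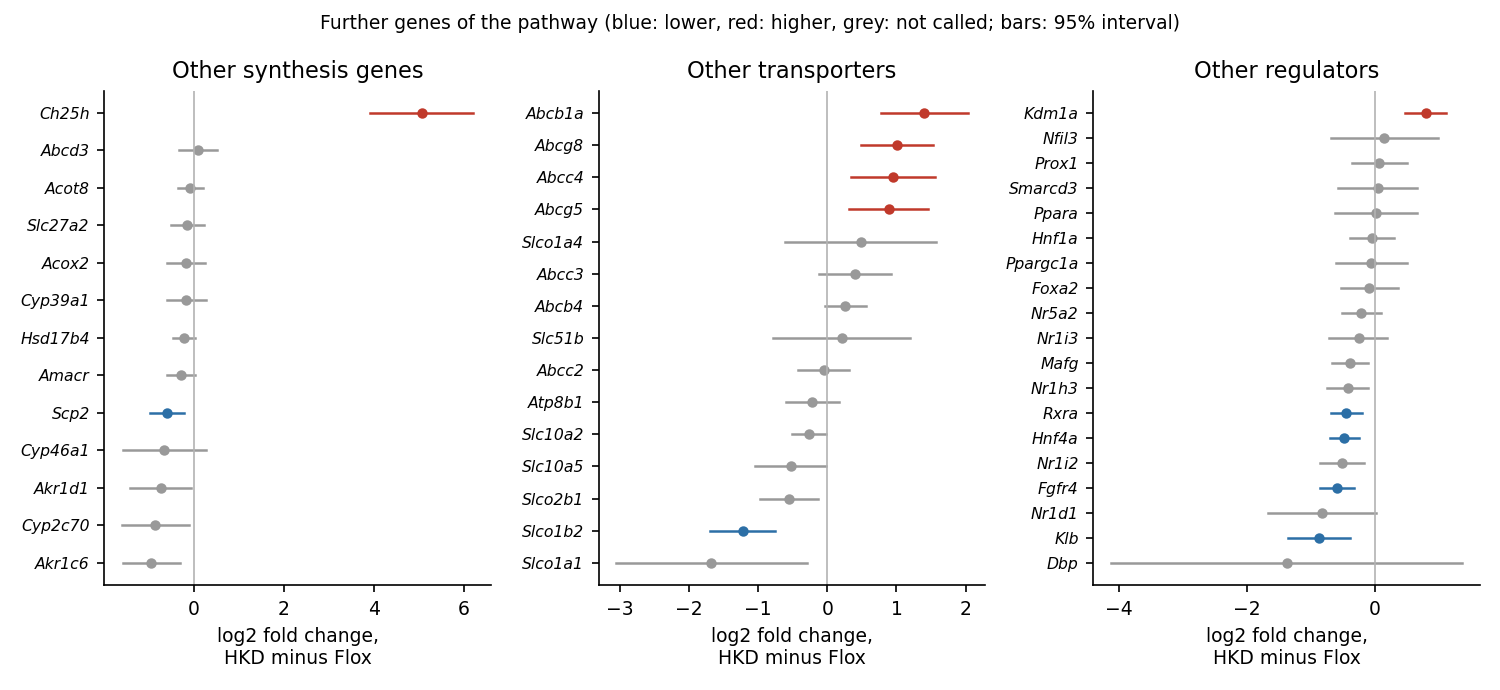
log2 fold change (METTL3-HKD minus METTL3-Flox) and 95% interval for the tested genes of 3 further lists, with called genes in blue (lower) or red (higher) and others in grey. Of the transporters, Slco1b2 (-1.22) is in blue and Abcb1a (1.40), Abcg8 (1.01), Abcc4 (0.95) and Abcg5 (0.89) are in red, and Ch25h (5.06) stands apart in its list.

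Regulators of the pathway gave calls that depended on scaling. Of 22 listed genes 19 were tested, with 4 called lower, against 6.63% of all genes, 1 called higher, against 9.05%, and a median log2 fold change of -0.26. Scaling to reads on genes left 1 lower and 1 higher call, against 2.24% and 13.8% of all genes (median -0.03), and equal hepatocyte markers left 1 higher call alone, against 0.764% lower and 8.76% higher of all genes (median 0.07). Fgfr4 and Klb form the hepatocyte receptor for the intestinal hormone Fgf15, which represses Cyp7a1, and Fgf15 itself was listed at 0 in every liver. Fgfr4 had 12.9 ± 1.55 FPKM in METTL3-HKD and 19.5 ± 2.26 FPKM in METTL3-Flox mice (SD, n = 4 each), and a log2 fold change of -0.59 (limma adjusted p = 0.0145). Klb had, in the same order, 4.08 ± 0.994 FPKM against 7.56 ± 1.49 FPKM (SD, n = 4 each), and a log2 fold change of -0.88 (adjusted p = 0.0269).
Hnf4a, a master factor of hepatocyte genes known to activate Cyp7a1 and Cyp8b1, had 111 ± 7.08 FPKM against 155 ± 15 FPKM (SD, n = 4 each), and a log2 fold change of -0.48 (limma adjusted p = 0.0187). Rxra, the partner of Nr1h4 in its DNA-bound dimer, had 75.8 ± 9.8 FPKM against 103 ± 3.57 FPKM (SD, n = 4 each), and a log2 fold change of -0.45 (adjusted p = 0.0263). Kdm1a, a histone demethylase, rose from 3.10 ± 0.221 FPKM to 5.50 ± 1.01 FPKM (SD, n = 4 each; log2 fold change 0.79, adjusted p = 0.0108), and was called under all 18 alternatives. Nr5a2 (LRH-1), an activator of Cyp7a1, had a log2 fold change of -0.22 (limma adjusted p = 0.301). The calls of Fgfr4, Klb, Hnf4a and Rxra were lost with equal hepatocyte markers (limma adjusted p between 0.191 and 0.652). Leaving out 1 liver also ended the call of Hnf4a (METTL3-HKD liver 2, METTL3-Flox livers 3 and 4; adjusted p 0.0503 to 0.0592), of Rxra (METTL3-HKD livers 1 and 2, METTL3-Flox livers 2, 3 and 4; 0.0543 to 0.0679) and of Klb (METTL3-HKD liver 1, METTL3-Flox livers 2, 3 and 4; 0.0516 to 0.0764).

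The genes most like Cyp7a1 and Cyp8b1 over the 8 livers were found by the mean absolute difference of log2(FPKM + 0.1), each gene centred on its own mean, among 9798 protein-coding genes averaging 1 FPKM or more. For Cyp7a1 they were Fabp5 (mean difference 0.52), Upp2 (0.578) and Keg1 (0.678), and for Cyp8b1 they were Bmf (0.296), Keg1 (0.313) and Fn3k (0.324). Fabp5, a fatty acid binding protein, measured 2.93, 2.96, 7.22 and 9.20 FPKM across METTL3-HKD livers 1 to 4 but 13.3, 50.6, 23.6 and 19.9 FPKM across METTL3-Flox livers 1 to 4. Like Cyp7a1, it was lowest in METTL3-HKD liver 1 and highest in METTL3-Flox liver 2.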

How the data were processed

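Livers of 4 METTL3-HKD and 4 METTL3-Flox mice were sequenced with a SMARTer mRNA-Seq kit, and groups follow the sample labels, which do not tie a replicate number to a litter. The authors deposited FPKM for 54532 genes with the length of each gene. The submitters' processing notes name GRCm38 and mm10, and the aligner, counting, annotation and strand setting are not given in the sources used here. Each FPKM was multiplied by the gene length and by a constant per library. All non-zero values (100%) then came out whole (tolerance 0.05), which gave the depth and the reads for voom. Read numbers cover counting error only. The library size behind each FPKM differed from the reads on genes, so libraries had been scaled before deposition. It was 2.01148e+07 against 17237993 reads in METTL3-HKD liver 1, and 1.42109e+07 against 16914680 in METTL3-Flox liver 1. The values were close in METTL3-HKD liver 4 (1.85855e+07 against 18434488) and METTL3-Flox liver 4 (1.60977e+07 against 15968910). Divided by its mean over all livers, this size was 1.06 to 1.18 in METTL3-HKD and 0.830 to 0.944 in METTL3-Flox mice. These ratios mix depth with scaling.

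A mean of 0.1 FPKM or more was required, which left 16645 genes, and these were fitted with limma 3.58.1 in R 4.3.3 (lmFit, then eBayes using the mean-variance trend) on log2(FPKM + 0.1), which understates changes of low genes. Single values were compared by exact permutation over all 70 arrangements with scipy 1.17.1. Where nothing ties libraries to more than 1 preparation, p-values measure the spread between these 8 samples. The method was tested on simulated data with the same dispersion for every gene and planted changes larger than those of most bile acid genes here. Smaller changes and wider spreads were not covered by that simulation. Alternatives changed the pseudocount to 1 FPKM, the minimum mean to 1 FPKM or none, or the fit to no trend, array quality weights, a replicate block, protein-coding genes only, voom, scaling to reads on genes, equal hepatocyte markers and the omission of each liver. Pathway genes were named where called, with up to 6 per list, together with Fgfr4, Klb, Hnf4a and Nr5a2, and the 3 genes most like Cyp7a1 and Cyp8b1. Members and lists were chosen with earlier results of these data known. The overlap with other annotated genes was checked in GENCODE M21. Abcb11 shares 3.01% of its exonic bases with antisense genes near 0 FPKM, Abcb1a 10.1%, Ch25h 11.5% and Keg1 8.67%, and Abcg5 and Abcg8 share 82 bases, so their reads could be mixed where strand was not used. Protein sequences were not used here.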

Additional observations from a re-analysis of the deposited data

Results flagged for a closer look

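Cyp7b1 in METTL3-HKD liver 3 had 95.6 FPKM, far from the 16.3 to 27.7 FPKM of the other METTL3-HKD livers and within the METTL3-Flox range of 57.1 to 120 FPKM. The gap to its nearest neighbour, as a share of the group's range, was above Dixon's 95% critical value for 4 samples. Of 48 gene and group combinations tested, 1 passed, where chance passes about 1 in 20. The same liver was the highest of its group for 4 of the 10 genes, the others being Cyp27a1 (124 FPKM), Abcb11 (36.4 FPKM) and Nr1h4 (41.2 FPKM). Each of these others was still below every METTL3-Flox liver. METTL3-HKD liver 4 was the highest for another 4 genes.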

How the results depend on the processing

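The counts of calls changed with scaling and when single livers were left out. Leaving out a liver also leaves fewer livers to compare, so a lost call cannot be put down to that liver. For Cyp27a1, which lost its call in most of these fits, the log2 fold change stayed between -0.75 and -0.50. Of the bile acid genes, 5 were called lower, against 3 with scaling to reads on genes, 2 with equal hepatocyte markers and 2 to 7 with 1 liver left out (2 without METTL3-HKD liver 2 or METTL3-Flox liver 3). The count called higher was 0 in every alternative. For other synthesis genes the 2 calls became 1 with no minimum, array weights, the replicate block and both scalings, and 1 to 3 with 1 liver left out. For other transporters 5 calls became 3 with a minimum of 1 FPKM, at which Abcb1a and Abcc4 were not tested. They also became 3 with no minimum or no trend, and 2 to 6 with 1 liver left out. For other regulators 5 calls became 3 with the replicate block, 2 with reads on genes, 1 with equal hepatocyte markers, and 2 to 7 with 1 liver left out. Over all genes, 1104 lower and 1506 higher calls became 374 and 2309 with reads on genes, 128 and 1467 with equal hepatocyte markers, 682 and 1204 with no minimum, 746 and 1246 with no trend, and 355 to 1148 and 747 to 1659 with 1 liver left out. Apart from Abcb1a and Abcc4 at the minimum of 1 FPKM, the cause of these changes was not tested.

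Log2 fold changes reversed for Baat (0.06), Nr0b2 (0.11), Nr5a2 (0.12) and Mettl3 (0.17) with equal hepatocyte markers, for Mettl3 (0.05) with reads on genes, and for Nr0b2 (0.06, in a range of -0.51 to 0.06 with 1 liver left out) without METTL3-HKD liver 4, and none of these values was called. The difference in the log2 ratio of Slc10a1 to Abcb11 ran from -0.34 to 0.09 with 1 liver left out, and turned positive without METTL3-Flox liver 2 (0.09) or 4 (0.02). That of Cyp8b1 to Cyp7a1 ran from 0.59 to 1.40.

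Whether replicate numbers pair the mice is not given by the labels, and the correlations between livers could not decide it. Deviations from the group means of equally numbered livers correlated at 0.14, -0.16, -0.04 and -0.10 over 10694 genes for numbers 1 to 4. Only the livers numbered 1 correlated best with their own number. With the replicate block, 645 genes were called lower and 971 higher. The bile acid genes gave 5 lower calls again, with Slc10a1 (limma adjusted p = 0.0354) and Abcb11 (0.0292) gained and Cyp27a1 (0.0967) and Slc27a5 (0.0931) lost.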
